A study of Mus musculus with 24 samples.

Results

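The zinc finger protein transcripts described here are those of protein-coding genes whose symbol begins with Zfp and a digit and that carried an m6A peak in at least 1 mouse kidney. A peak counted when it overlapped an exon of the gene on the same strand by at least 1 bp. Of 394 such genes in the GENCODE M21 annotation of GRCm38, 300 had a peak, among 7774 protein-coding genes with a peak in the series. They held 2814 of the 91013 listed peaks. N6-methyladenosine (m6A) was measured by MeRIP-seq, in which RNA fragments pulled down by an m6A antibody are sequenced and methylated stretches appear as peaks of reads. The kidneys came from male C57BL/6 mice (C57 in the labels) aged 8 weeks at the start and in 3 groups of 4, named control, injury (IG) and treatment (TG). Cisplatin at 20 mg/kg was injected into all IG and TG animals. The TG animals were pretreated with daily berberine (20 mg/kg for 14 days), in place of which control and IG animals were given saline. Kidneys were taken 72 h after the injection. Injury was compared with control (IvC), treatment with injury (TvI) and treatment with control. The whole kidney was used, so fewer cells of a type and less RNA per cell cannot be told apart, and the lists hold no expression values that would separate a change of methylation from a change of transcript level.

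Zfp genes encode a large and varied group of proteins named for zinc fingers, short folds in which a zinc ion is held by cysteine and histidine side chains. Most are C2H2 proteins, in which tandem fingers read DNA, and many of these also carry a KRAB domain, which recruits the corepressor Trim28 and silences transposable elements and other chromatin. Consecutive fingers are joined by a short conserved linker that reads threonine, glycine, glutamate, lysine, proline. In KRAB zinc finger genes the finger array is usually encoded by the last exon. The enzyme complex that writes m6A acts mainly on a short consensus known as RRACH, and m6A is typically found near stop codons and in long exons. RRACH was searched here on both strands as NNACN, in which A or G stands at the first and the second position and A, C or T at the last.

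The linker sequences are shown because the codons of the linker can themselves spell AAACC, a form of RRACH, where lysine is encoded by AAA and followed by the first bases of a proline codon. The 300 Zfp genes held 1325 linkers in 227 genes, with a median of 6 per gene that had any. Of these linkers, 1283 (96.8%) lay in the last exon, and 1197 (90.3%), in 203 genes, lay inside a peak listed in any of the 12 kidneys. Zfp peaks in long last exons covered a median of 70.9% of the exon (mean of the 12 kidney medians). The share of other coding sequence inside a peak was not measured, so 90.3% does not show a preference for linkers. Lysine was encoded by AAA in 820 linkers (61.9%), so that AAACC occurred in the linker, and AAA made up 53.0% of all lysine codons in Zfp genes against 41.2% in all protein-coding genes. The 1325 linkers had 169 distinct codon sequences. The 4 most frequent with AAACC, in capitals and read 5′ to 3′ in GRCm38, were found 155, 89, 85 and 68 times, in 61, 31, 43 and 23 genes:
Linker form found 155 times: actggagagAAACCc
Linker form found 89 times: acaggagagAAACCc
Linker form found 85 times: actggagagAAACCt
Linker form found 68 times: acaggagagAAACCt

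For genes whose peaks differed between groups, a stretch around a linker inside a listed peak is given below, 5′ to 3′ on the gene's strand, with AAACC in capitals. Zfp85, Zfp108, Zfp128, Zfp964 and Zfp51 carried these linkers in last-exon peaks listed in all 4 control kidneys and in no IG kidney. Zfp456 carried its linker in a peak listed only in kidneys given cisplatin, and Zfp273 in a peak listed in every TG kidney and no IG kidney.
Zfp85, chr13:67749541-67749561, minus strand: catactggcgagAAACCctac
Zfp108, chr7:24261474-24261494, plus strand: cacacaggagagAAACCgtat
Zfp128, chr7:12890700-12890720, plus strand: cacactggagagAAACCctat
Zfp964, chr8:69663550-69663570, plus strand: cacactggtgaaAAACCctat
Zfp51, chr17:21463914-21463934, plus strand: catactggggaaAAACCttac
Zfp456, chr13:67366512-67366532, minus strand: catactggagagAAACCatac
Zfp273, chr13:67825145-67825165, plus strand: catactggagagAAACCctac
Each stretch was chosen for holding AAACC inside a peak, so its presence there is no finding. Linkers of that kind were 7 of 8 in Zfp85, 1 of 7 in Zfp108, 1 of 2 in Zfp128, 3 of 3 in Zfp964, 6 of 9 in Zfp51, 1 of 1 in Zfp456 and 8 of 9 in Zfp273. The joined loci that hold them span 1511 to 2317 nt, so the lists do not place the methylated base within a linker.

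Fewer Zfp genes carried a peak in IG and TG kidneys than in controls. The control lists held 224, 213, 218 and 233 Zfp genes, the IG lists 168, 173, 180 and 171, and the TG lists 162, 164, 140 and 169. All 8 kidneys given cisplatin lay below all 4 controls, and IG and TG overlapped. The means were 222 ± 8.60 (SD, n = 4) in controls, 173 ± 5.10 in IG and 158.8 ± 12.8 in TG. The exact permutation test over the 70 arrangements of 8 kidneys, whose smallest two-sided p is 0.0286, gave p = 0.0286 for IvC (difference -49) and for treatment minus control (-63.25), and p = 0.0571 for TvI (-14.25). After Benjamini-Hochberg adjustment, made across 4 measures in 3 comparisons (12 tests), these exact p-values became 0.0571, 0.0571 and 0.0857, so that none of the 12 passed 0.05.

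The lists differed in length in the same order as these counts. They held 8531 to 9579 peaks in controls, 6745 to 8357 in IG and 5901 to 6753 in TG. When each list was shortened to its 5901 highest-scoring peaks, the IvC difference in Zfp genes was -24.25 and that of treatment minus control -22.25, both with an exact permutation p of 0.0286, while TvI turned to 2 (p = 0.886, exact permutation test). With only scores no lower than 71.3, the median of all lists, TvI was instead -18.25 (exact permutation p = 0.0286). It was -8 without TG kidney 3 and, chosen after seeing the data, -6.75 without members that share over 5% of the 100-mers of their last exon with other transcripts (p = 0.486, exact permutation test). As a share of all protein-coding genes with a peak, Zfp genes made up 4.58%, 4.46%, 4.30% and 4.54% in controls, 3.88%, 3.92%, 3.84% and 4.18% in IG, and 4.12%, 4.45%, 3.88% and 4.11% in TG. The IG shares lay below all control shares (3.96% ± 0.152 against 4.47% ± 0.122, exact permutation p = 0.0286, adjusted p = 0.0571). TG (4.14% ± 0.232) overlapped both, with p = 0.0571 against controls and p = 0.343 against IG in the exact permutation test. The difference between treatment and control was -0.507 points with equal list lengths and -0.877 points with scores no lower than 71.3 (exact permutation p = 0.0286 each), but -0.196 without the members with shared sequence (p = 0.171, exact permutation test).

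**Figure D1:**
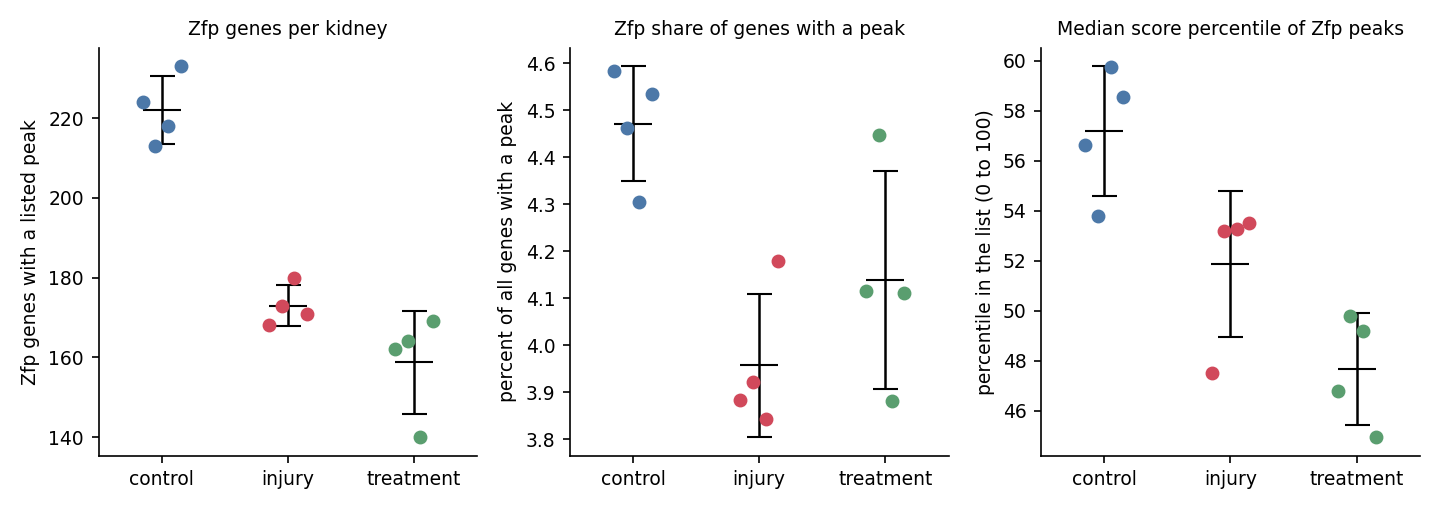
Each dot is a kidney, and the bars show the mean ± SD of 4 kidneys. The panels plot the number of Zfp genes with a listed peak, their percent of all protein-coding genes with a peak, and the median percentile of Zfp peak scores within the list of the kidney. In the first panel IG (168 to 180 genes) and TG (140 to 169) lie below all controls (213 to 233); axes do not start at 0.

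Each finger class had fewer listed genes in IG and TG than in controls on average, and so had all protein-coding genes, with 4966, 4378 and 3836 per kidney. Fingers were counted in the translated coding sequence as a cysteine and histidine pattern of the C2H2 type. Zfp genes with a peak had a median of 11 fingers, with 256 genes holding at least 5, 33 holding 1 to 4, and 11 none. The highest number was 36, in Zfp142. Genes with at least 5 fingers and a peak numbered 193 ± 6.68 per kidney in controls, 149.5 ± 5.45 in IG and 136.8 ± 12.8 in TG (SD, n = 4). Genes with 1 to 4 fingers numbered 23, 19.25 and 17.25 on average, and those with none 6, 4.25 and 4.75. The 94 Zfp genes without a peak had a median of 9 fingers, and 69 of them held at least 5.

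Zfp genes varied widely in how many kidneys listed them. A peak was listed in all 12 kidneys for 63 genes (21% of the 300, against 24.4% of other genes with a peak) and in a single kidney for 27. All 4 kidneys of a group listed 165 Zfp genes for controls, 105 for IG and 91 for TG, and at least 1 kidney listed 276, 236 and 225. As percents of Zfp genes with a peak, the genes in all 4 kidneys were 55%, 35% and 30.3%, beside 45.6%, 36.1% and 31.3% of all protein-coding genes with a peak, and those in at least 1 kidney 92%, 78.7% and 75%, beside 83.1%, 78.9% and 70.1%. Only control kidneys listed 49 Zfp genes (16.3%, beside 14.2% of all genes with a peak), against 6 for IG only (2%, beside 6.84%) and 6 for TG only (2%, beside 3.19%). These unions grow with list length, so they describe the lists and were not tested.

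**Figure D2:**
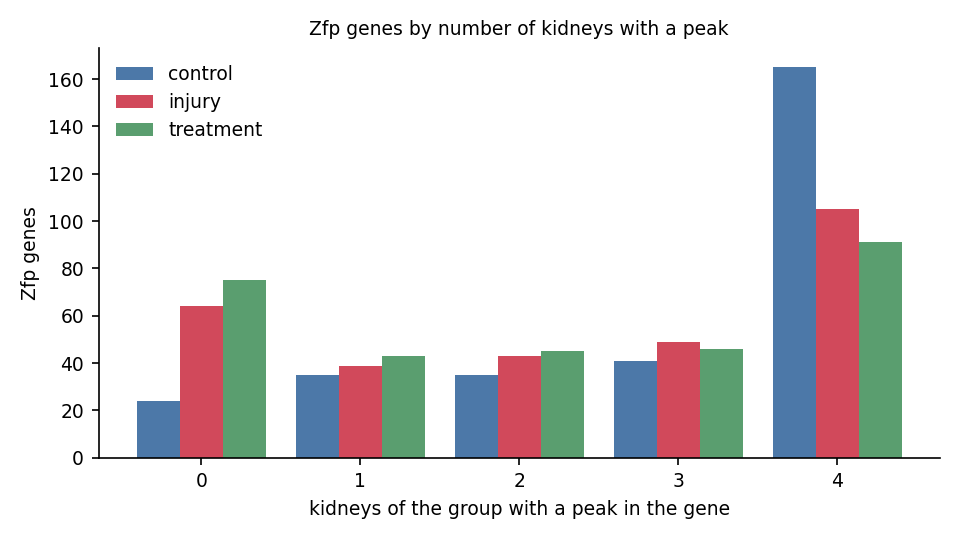
Number of the 300 Zfp genes (vertical axis) by how many of the 4 kidneys of a group listed a peak in the gene (horizontal axis). Genes listed in all 4 kidneys numbered 165 (control), 105 (injury) and 91 (treatment), and genes listed in none 24, 64 and 75.

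Peaks of Zfp genes lay mainly in the last exon. In each kidney, 64.4% to 71.4% of Zfp peaks overlapped the last exon of the transcript with the longest coding sequence, against 25.1% to 29.5% of the peaks of other genes. The mean difference over the 12 kidneys was 40.18 percentage points, with a range of 37.67 to 44.89, and it was above 0 in 12 of 12 kidneys (exact permutation test by two-sided sign flips, p = 0.000488, which is the smallest value possible). For last exons of at least 1000 nt the shares were 65.6% and 21.5%, a difference of 44.09 points with the same exact permutation p. Most Zfp genes have such an exon: it was long in 278 of the 300 (92.7%, median 2711 nt), against 66.5% of other genes with a peak (median 1535 nt). Where only genes with a long last exon were compared, the difference was still 39.7 points (p = 0.000488, exact sign-flip permutation test).

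**Figure D3:**
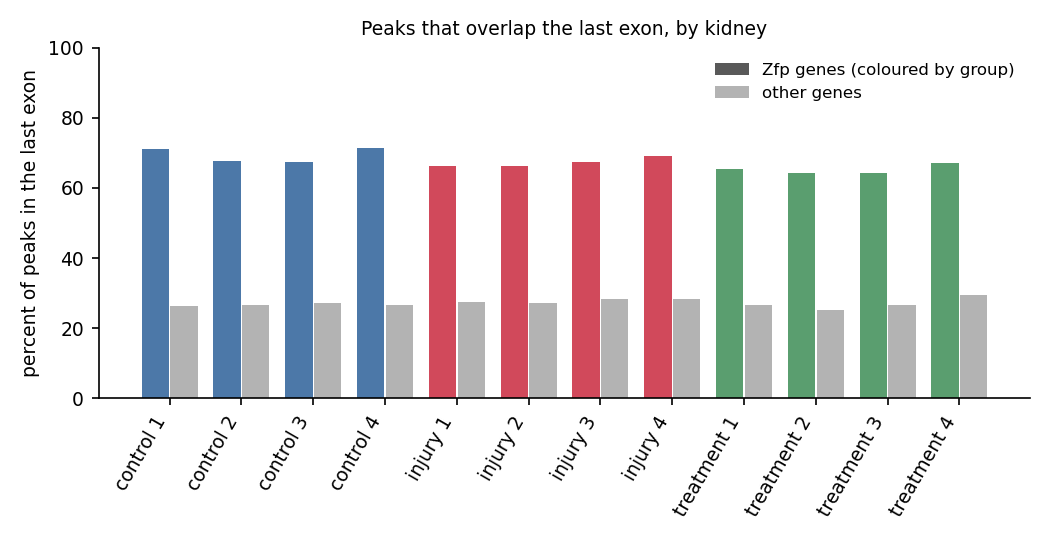
Percent of peaks that overlap the last exon in each of the 12 kidneys, for Zfp genes (coloured bars) and all other protein-coding genes (grey bars). Zfp genes lie between 64.4% and 71.4% and other genes between 25.1% and 29.5%.

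The last-exon share of Zfp peaks also differed somewhat between groups. It was 69.4% ± 2.09 in controls, 67.3% ± 1.37 in IG and 65.3% ± 1.32 in TG (SD, n = 4). TG lay below all controls (-4.09 points, exact permutation p = 0.0286, adjusted p = 0.0571), while IvC (-2.15 points, p = 0.171) and TvI (-1.94 points, p = 0.114) overlapped in the exact permutation test. IvC was -5.72 points with scores no lower than 71.3 and -3.00 points for members with at least 5 fingers, with an exact permutation p of 0.0286 in both. Leaving out each kidney in turn gave -2.79 to -1.48 points. Over the 12 kidneys, the 447 Zfp loci, each made by joining overlapping same-strand peaks, comprised 272 in the last exon (60.9%), 35 in another exon of at least 1000 nt, 130 in a shorter exon and 10 in an exon of another transcript. A last-exon peak was found in 261 of the 300 genes. A single locus was found in 205 genes and 2 loci in 67, and Zfp827 had the most, with 9.

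Within the last exon, Zfp peaks reached far into the coding sequence. Among genes with a long last exon, Zfp peaks had a median length of 1975 nt against 1303 nt for other genes (mean of the 12 kidney medians), and were longer in 12 of 12 kidneys. They began a median of 1439 nt before the end of the coding sequence, against 432 nt, and ended 580 nt beyond it, against 742 nt. The peak began at the first base of the last exon in 87.1% of Zfp cases and 81.4% of others, and held the stop codon in 92.2% and 90.5%. The finger arrays lay in the same stretch, since 85.3% of the 3276 fingers of Zfp genes were encoded in the last exon. Many listed boundaries thus coincide with exon boundaries, which limits how finely the position of methylation can be read, and these peak shapes were described without a test.

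**Figure D4:**
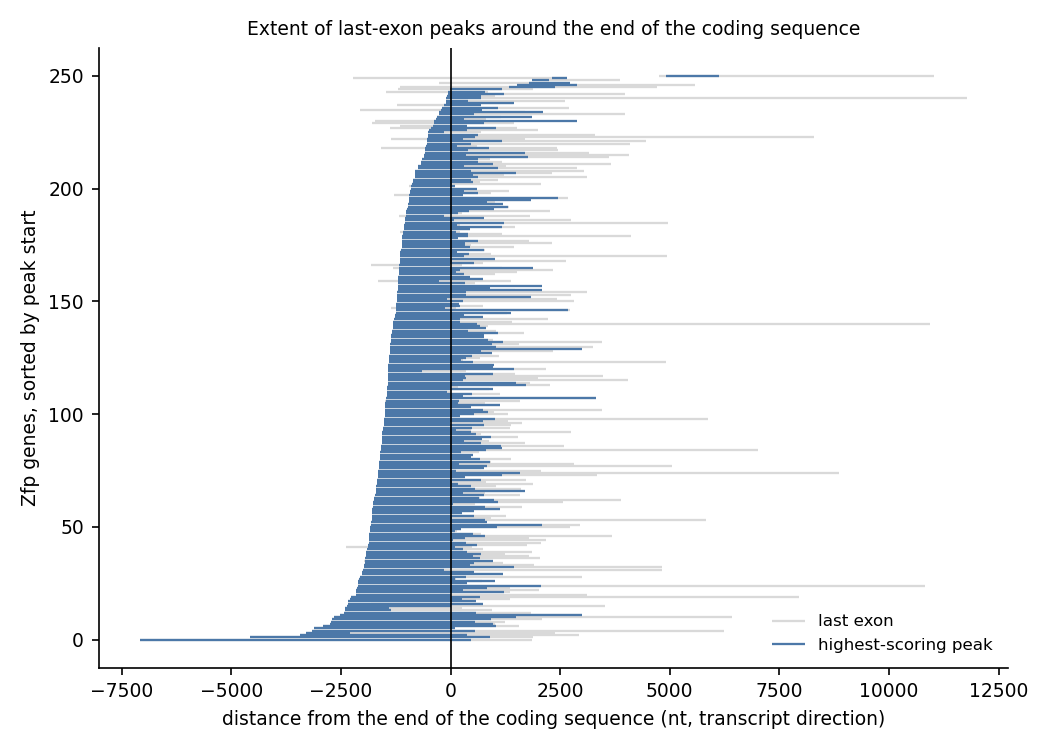
The highest-scoring last-exon peak (blue) of each of 251 Zfp genes with a long last exon, drawn over that exon (grey) against the distance in nt from the end of the coding sequence (0, black line). Most peaks begin with the exon, more than 1000 nt before the line, and cross it, while the end of the exon is often left uncovered.

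The listed last exons of Zfp genes also differed from others in base content. In the 251 Zfp genes with a long last exon and a peak there, listed last-exon sequence held a median of 17.1 RRACH per kb on the gene's strand, against 15.3 in 3184 other genes. On the opposite strand the medians were 10.7 and 13.8 per kb. AAACC stood at 3.20 per kb in Zfp genes and 0.969 in the others, and made up 20.4% against 7.59% of all RRACH. GGACT, another form of the same consensus, went the other way, at 0.647 and 1.01 per kb. Over windows of equal length, the first 1000 nt of the last exon, AAACC occurred in 86.1% of Zfp genes and 63.4% of others, and GGACT in 46.2% and 69.2%. The sequence compared was not alike, since Zfp peaks began a median of 1439 nt before the end of the coding sequence, against 432 nt in others. Coding and untranslated sequence were not separated in the counts per kb or in the windows. A match says only that the letters are present, and these counts were not tested.

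Peak scores of Zfp genes are given as deposited, as minus 10 times the log10 of the peak's p-value, with a median over all lists of 71.3. For the group tests and for loci with a peak in all 12 kidneys, each score was compared as its percentile in the list of its own kidney, from 0 to 100. Where single genes are described, deposited scores are set side by side unless a percentile is named. These scores also move with sequencing depth, which is unknown here. The median percentile of Zfp peaks was 56.6, 53.8, 59.7 and 58.6 in the 4 controls, 47.5, 53.2, 53.3 and 53.5 in IG, and 46.8, 49.8, 49.2 and 44.9 in TG. All kidneys given cisplatin lay below all controls, and IG and TG overlapped only at IG kidney 1. The difference was -5.31 in IvC and -9.50 for treatment minus control (exact permutation p = 0.0286 each, adjusted p = 0.0571), and -4.19 in TvI (exact permutation p = 0.0857). With equal list lengths the IvC difference was -1.74 (p = 0.486, exact permutation test) and that of treatment minus control -3.62 (p = 0.0286), and TvI was -1.89 (p = 0.543, exact permutation test). With scores no lower than 71.3 neither IvC (-3.22, p = 0.114) nor treatment minus control (-2.86, p = 0.229) passed the exact permutation test. TvI turned positive with that cut, and lay further below 0 without members with shared sequence, as given under the processing alternatives. Set against the peaks of other genes, the mean of the Zfp medians was 52.2 against 50.02, higher in 7 of 12 kidneys (exact sign-flip permutation p = 0.138), and the sign of this difference changed with the peaks used.

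The highest-scoring Zfp transcripts included several outside the last-exon pattern. Zfp644, which acts with the G9a and GLP histone methyltransferases, had a peak in exon 3 of 6 (chr5:106635610-106638635) with scores of 2953.69, 2605.94, 2396.25 and 3100 in controls, 1982.45, 2691.31, 1936.1 and 2545.04 in IG, and 1577.07, 1738.21, 1360.7 and 2496.24 in TG. It was among the strongest peaks of every kidney. Zfp608, a relative of Zfp609, had its main peak in exon 5 of 10. The scores of that peak were 1504.54, 1577.89, 1198.67 and 1180.67 in controls, 2296.42, 2471.67, 2464.72 and 2265.43 in IG, and 680.58, 1378.9, 2437.59 and 1550.1 in TG. All IG kidneys scored above all controls, and TG overlapped both. Zfp106, an RNA-binding protein needed by motor neurons and muscle, had its main peak in exon 4 of 22 (chr2:120539295-120539860). Its scores were 2013.98, 2414.37, 1659.03 and 1843.71 in controls, 894.54, 556.48, 956.41 and 993.35 in IG, and 678.73, 585.28, 960.23 and 1272.8 in TG. All 8 kidneys given cisplatin scored below all controls. Zfp623 carried a single high peak over its last exon (chr15:75947123-75949400), with mean scores of 1544 ± 452 in controls, 1127 ± 522 in IG and 732 ± 144 in TG (SD, n = 4). Zfp281, a regulator of pluripotent cells with a last-exon peak in all 12 kidneys, had scores between 355.47 and 1205.45 that overlapped among all groups. Zfp609, a partner of the Integrator complex, had its top peaks in exons 2 and 5 of 10, and Zfp592 in exon 3 of 10, each listed in all 12 kidneys.

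Zfp91 and Zfp791 combined high scores with absence. Zfp91, a ubiquitin ligase of the NF-kappaB pathway, had a 207-bp peak covering exon 3 of 11 (chr19:12778893-12779099) that scored 1717.92, 2189.46, 2332.1 and 2670.62 in controls, 2096.82 in IG kidney 3, and 3100 and 2719.51 in TG kidneys 2 and 4. The other 5 kidneys did not list it. Zfp791 had a 61-bp peak in exon 4 of 5 (chr8:85112210-85112270) that was listed in 8 kidneys with scores of 426.75 to 3175.76, and in none of control kidneys 3 and 4 and IG kidneys 2 and 4. Of the 24 Zfp loci that reached a score over 1000, 9 were missing from at least 1 list.

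In IvC, 16 Zfp loci had a peak in all 4 controls and no IG kidney, called lost here, and 5 had the reverse and are called gained. These were 16 and 5 of 431 Zfp loci tested (3.71% and 1.16%), beside 2.73% and 1.35% of all 16072 loci. The share lost and the share gained among Zfp loci thus lay near those of all loci. Each such locus has a Fisher's exact test p of 0.0286, and after Benjamini-Hochberg adjustment over all loci the lowest p was 0.701, so that 0 loci passed. Counted by gene, 14 of 294 Zfp genes were lost and 3 gained (4.76% and 1.02%), beside 3.16% and 1.9% of all genes. By a looser call, a difference of at least 3 kidneys, 49 Zfp loci were lost and 15 gained (11.4% and 3.48%), beside 8.95% and 3.82% of all loci, and 35 Zfp genes were lost and 12 gained (11.9% and 4.08%), beside 8.98% and 4.4% of all genes. Of the 16 lost loci, 13 lay in the last exon and held the stop codon, beside 60.9% of all Zfp loci in the last exon, and 6 were on chromosome 7, which holds 72 of the 300 genes. TG kidneys listed 9 of the 16, in 1 or 2 kidneys each, and 7 in none. With equal list lengths 7 of the 16 lost and 3 of the 5 gained loci were called again, and with scores no lower than 71.3 only 4 and 1.

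Zfp36 led the lost loci. It encodes tristetraprolin, which binds AU-rich elements and speeds the decay of cytokine transcripts through a CCCH rather than a C2H2 finger. Its peak, spanning exons 1 and 2 of 2 and the stop codon (chr7:28376786-28379255, minus strand), scored 439.31, 385.74, 164.09 and 111.64 in controls and was not listed in any IG or TG kidney. Its relative Zfp36l1 had a last-exon peak in control kidneys 1, 3 and 4, at 21.24, 18.78 and 144.09, and likewise none in IG or TG. No kidney listed a peak for Zfp36l2, the other member examined. Zfp703, a transcriptional corepressor, had a last-exon peak (chr8:26978568-26980957) that scored 327.15, 191.67, 111.39 and 333.4 in controls and was listed in no other kidney.

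The remaining lost loci were mostly multi-finger genes with moderate scores. Zfp85 (14 fingers) had a last-exon peak (chr13:67747800-67749722) scoring 136.4, 282.87, 166.36 and 209.09 in controls, and 26.73 and 24.16 in TG kidneys 1 and 3. Zfp108 (12 fingers, chr7:24260128-24262444) scored 74.24, 156.39, 186.99 and 214.65 in controls, and 20.92 and 21.78 in TG kidneys 2 and 4. In both genes the TG scores, where a peak was listed, lay below every control score. Zfp672 (13 fingers, chr11:58315114-58317534) scored 83.44, 29.11, 312.35 and 152.5 in controls only. Zfp128 (7 fingers, chr7:12889996-12891800) scored 90.67, 113.14, 56.5 and 84.29 in controls, and 28.81 and 28.89 in TG kidneys 2 and 3. The other 10 lost loci, in Zfp964, Zfp51, Zfp551, Zfp366, Zfp438, Zfp451, Zfp319, Zfp775, Zfp667 and Zfp78, scored between 13.45 and 137.06 in controls. In Zfp366, Zfp451 and Zfp51 the loss concerned the locus and not the gene. Zfp366 and Zfp451 had a peak in all 12 kidneys, and Zfp51 had a peak at another exon in 3 IG kidneys. Zfp362, named after its values were seen, was lost as a gene without a lost locus, with top scores of 31.74, 35.83, 48.05 and 22.1 in controls.

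Among the gained loci, Zfp365 stood out by its score. It encodes a protein linked to genome stability in which no C2H2 finger was found by the pattern used. Its peak lay in exon 2 of 5 (chr10:67909201-67909959, minus strand) and was absent from all 4 controls. The IG kidneys scored 167.94, 589.62, 739.06 and 504.85 and the TG kidneys 507.35, 596.72, 558.37 and 412.97, so it was present in all 8 kidneys given cisplatin. It was also called gained with equal list lengths and when only scores no lower than 71.3 were kept. Zfp57, a KRAB protein that maintains methylation of imprinted genes, had a last-exon peak (chr17:37009419-37010729) that scored 80.39, 14.7, 26.6 and 63.67 in IG and 43.69, 144.89, 62.89 and 26.54 in TG, and none in controls. With equal list lengths it was called gained between treatment and control but not in IvC, where the difference was 2 kidneys, and with scores no lower than 71.3 it was called in neither (1 kidney each). Zfp445, which acts in the same process, had a last-exon peak in control kidneys 1 and 3 (582.07 and 335.89) and TG kidney 4 (32.45), and a peak in exon 1 of 7 in IG kidney 2 (25.18). The other gained loci were the last exon of Zfp456, a 69-bp exon 4 of 7 of Zfp991 and an exon of another transcript of Zfp874a, with scores between 15.51 and 159.67 in IG. For the latter pair the gain concerned the locus and not the gene. The last exon of Zfp991 was listed in all 4 controls at 323.98, 262.5, 28.2 and 1098.02, and that of Zfp874a in control kidney 3 at 39.61. Zfp991 shares 78.1% and Zfp456 5.16% of their last-exon 100-mers with transcripts of other genes, while sharing at the other gained exons of this group was not measured.

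**Figure D5:**
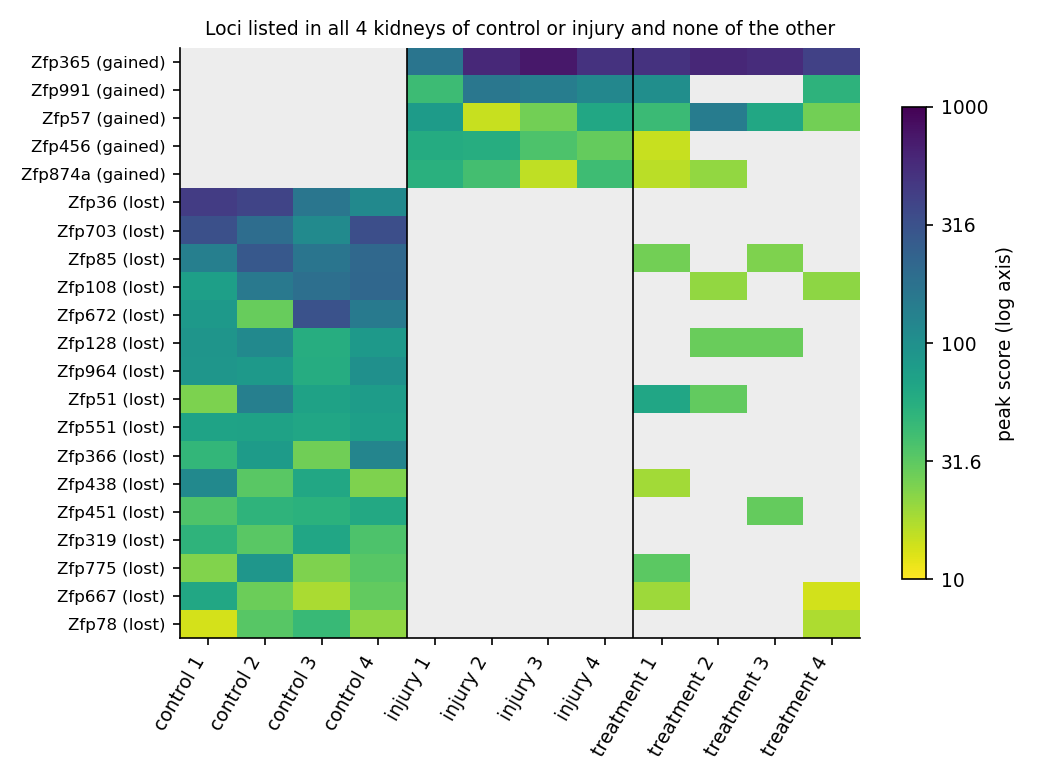
Score of each Zfp locus gained or lost in IvC (rows) in each of the 12 kidneys (columns), on a logarithmic colour scale, with grey where no peak was listed. The 5 gained loci are empty in controls and the 16 lost loci are empty in IG, Zfp365 is filled in all 8 kidneys given cisplatin, and 9 of the lost loci are filled in 1 or 2 TG kidneys.

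In TvI, few Zfp loci differed completely. A single locus was gained and a single locus lost of 361 Zfp loci tested (0.277% each), beside 0.217% and 0.449% of all 13367 loci. Fisher's exact test gave 0.0286 for each, with a lowest adjusted p of 1 and 0 loci passing. The gained locus was the last exon of Zfp273 (15 fingers, chr13:67824984-67827002). It scored 15.12, 54.11, 22.36 and 15.29 in TG and was absent from all IG kidneys, but control kidneys 1, 3 and 4 had scored 174.59, 206.58 and 63.49. All 4 TG scores lay below all listed control scores. The lost locus, in the last exon of Zfp407, scored 54.46, 53.2, 60.63 and 48.3 in controls and 28.24, 22.9, 23.59 and 16.33 in IG and was not listed in TG. The exon 2 locus of the same gene went the other way in IvC, with scores of 94.45, 88.79, 60.83 and 158.79 in controls, 443.91, 493.89, 485.66 and 366.35 in IG, and 144.47, 291.22, 307.7 and 46.58 in TG. Neither call was made with equal list lengths. Counted by gene, 1 of 251 Zfp genes was gained and 0 lost, beside 0.255% and 0.51% of all genes. By a difference of at least 3 kidneys, 5 Zfp loci were gained and 9 lost, beside 1.28% and 3.21% of all loci, and 3 Zfp genes were gained and 6 lost, beside 1.17% and 3.3% of all genes.

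Between treatment and control, 18 Zfp loci were lost and 4 gained of 424 tested (4.25% and 0.943%), beside 3.73% and 1% of all 15169 loci. Fisher's exact test gave 0.0286 for each, with a lowest adjusted p of 0.604 and 0 passing. Counted by gene, 14 of 294 Zfp genes were lost and 4 gained, beside 4.38% and 1.51% of all genes. By a difference of at least 3 kidneys, 56 Zfp loci were lost and 10 gained (13.2% and 2.36%), beside 12% and 2.83% of all loci, and 40 Zfp genes were lost and 8 gained, beside 12.7% and 3.49% of all genes. With equal list lengths 7 of the 18 lost and 3 of the 4 gained loci were called again, against 3 and 1 with scores no lower than 71.3. The control kidneys are shared with IvC, and the lost loci of Zfp36, Zfp703 and Zfp672 and the gained loci of Zfp365 and Zfp57 are those described above. Zfp574 (18 fingers, chr7:25079535-25082952) scored 163.78, 190.37, 209.72 and 400.25 in controls, 88.07 and 66.63 in IG kidneys 1 and 2, and was absent from TG. Zfp628 (16 fingers, chr7:4918776-4922003) had the same layout, with 336.67, 51.98, 164.49 and 264.5 in controls and 111.01 and 149.72 in IG kidneys 1 and 2. Zfp617 scored 88.6, 70.43, 300.22 and 127.59 in controls and 19.56 and 155.21 in IG kidneys 3 and 4, and it shares 35.9% of its last-exon 100-mers with other genes. Zfp112 gained a last-exon peak, at 27.41, 36.88, 47.56 and 42.33 in TG and in 3 IG kidneys at 13.5 to 35.26. Of these loci, Zfp672 was called under neither alternative (a difference of 3 kidneys in both), while Zfp628, Zfp617 and Zfp112 were called with equal list lengths but not with scores no lower than 71.3, where the differences were 3, 3 and 0 kidneys.

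Zfp51 differed in opposite directions along its transcript. Its last exon (exon 5 of 5, chr17:21463372-21465591) was listed in all 4 controls at 24.94, 137.06, 70.48 and 77.84, in no IG kidney, and in TG kidneys 1 and 2 at 65.84 and 30.02. Its 108-bp exon 3 (chr17:21456281-21456388) was listed in no control, in IG kidneys 2, 3 and 4 at 39.92, 96.81 and 42.44, and in all TG kidneys at 38.37, 122.44, 23.16 and 15.85. Neither the IvC loss nor the gain between treatment and control was called with equal list lengths (differences of 3 kidneys each) or with scores no lower than 71.3 (2 and 1). Each of the 2 patterns was chosen by its own call, and their combination was noticed after the values were seen.

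Scores were also compared at the 69 Zfp loci with a peak in all 12 kidneys. In IvC, 13 of the 69 lay lower in every IG kidney than in every control by within-list percentile and 6 lay higher, beside 15.9% and 9.72% of all 2417 such loci. In TvI 5 were lower and 1 higher, beside 4.34% and 2.77%, and between treatment and control 14 were lower and 1 higher, beside 19.2% and 7.32%. The median differences in percentile were -3.15, -3.52 and -8.15 for the Zfp loci, and -1.04, -0.984 and -2.72 for all. The shares of Zfp loci that were lower lay near those of all loci in IvC and treatment against control. With equal list lengths, an alternative chosen after seeing the data, 55 Zfp loci among 1922 had a peak in all 12 shortened lists. Of the 55, 7 were then lower and 6 higher in IvC, beside 10.8% and 13.8% of all such loci. In TvI 0 were lower and 1 higher, beside 1.98% and 4.995%, and between treatment and control 5 were lower and 5 higher, beside 9.37% and 15.8%. The median differences were -1.47, -0.43 and -1.35 for the Zfp loci, while those of all loci turned to 0.65, 0.62 and 1.47.

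Zfp830, a protein associated with the spliceosome, was among the 6 higher in IvC. Its locus began with its single exon and, in the joined interval (chr11:82764345-82767235), ran past the annotated end of the gene at 82765935. It scored 547.56, 292.1, 554.86 and 134.55 in controls, 1018.95, 2446.78, 1369.11 and 1709.8 in IG, and 894.51, 627.29, 452.88 and 919.8 in TG. All IG scores lay above all TG scores and all control scores. Zfp827, which recruits the NuRD complex to telomeres, was among the 13 lower. Its last-exon locus (chr8:79189667-79191117) scored 972.7, 475.96, 547.2 and 497.22 in controls, 307.64, 276.47, 126.46 and 171.34 in IG, and 285.36, 74.6, 44.29 and 74.01 in TG. Zfp248, chosen after its values were seen, was the only one of the 69 lower in IvC and higher in TvI. The last-exon peak (chr6:118428619-118430394) scored 120.29, 152.59, 125.15 and 158.03 in controls, 78.16, 31.99, 48.01 and 20.53 in IG, and 194.25, 104.18, 132 and 153.03 in TG, so that TG overlapped controls and IG lay apart from both. The IG kidneys are shared by both comparisons. With equal list lengths Zfp830 was again higher and Zfp827 and Zfp248 lower in IvC, and Zfp248 higher in TvI and also above all controls in TG.

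Of 36 Zfp genes listed for a known role, 29 had a peak, with 23 ± 2 per kidney in controls, 19.75 ± 1.89 in IG and 19.25 ± 2.22 in TG (SD, n = 4). By gene, 1 of them was gained in IvC (Zfp57, a call not made with equal list lengths) and 2 were lost (Zfp36 and Zfp703), beside the 1.9% and 3.16% of all genes given above. A peak in all 12 kidneys was found for 12 of these 29 (41.4%), beside 24.3% of all genes with a peak, although the list was picked by role from all annotated Zfp genes. Zfp217, which binds the m6A methyltransferase Mettl3, was listed in all 12 kidneys with top scores of 175.36, 391.47, 558.8 and 722.51 in controls, 699.84, 1304.78, 594.05 and 26.58 in IG and 206.04, 332.1, 243.02 and 313.6 in TG, and the groups overlapped. Zfp148, a GC-box binding factor, had top scores of 1253.59, 524.43, 724.03 and 1090.88 in controls, 174.52, 218.54, 472.67 and 259.29 in IG, and 396.99, 339, 187.99 and 215.28 in TG, drawn from its exon 4 or last-exon peak, whichever was higher. By within-list percentile both loci overlapped between controls and each other group, while the exon 4 locus was among the 5 lower in TvI. That call was not made with equal list lengths. Zfp809, which silences endogenous retroviruses, was listed in 3 kidneys of each group, at 853.92 to 1268.59 in controls, 224.1 to 340.91 in IG and 215.28 to 649.99 in TG. Zfp638, Zfp462, Zfp318 and Zfp451, with 6, 6, 5 and 5 loci, were listed in all 12 kidneys.

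Related C2H2 families also had fewer listed genes in IG and TG on average, as did all protein-coding genes (4966, 4378 and 3836 per kidney, as given with the finger classes). Zbtb genes with a peak numbered 29 ± 2.83, 22 ± 2.16 and 20.25 ± 4.79 per kidney in controls, IG and TG, of 41 annotated. Zscan genes numbered 6.5, 4.5 and 4 and Zkscan genes 6.75, 6 and 5.5. Of 24 cofactors of KRAB proteins and heterochromatin, 18 had a peak, at 15.25 ± 1.5 per kidney in controls, 16 ± 0.816 in IG and 14.5 ± 0.577 in TG (SD, n = 4). None was gained or lost. Trim28 and Setdb1, the main effectors of KRAB repression, had no listed peak in any kidney, and Mphosph8, a subunit of the HUSH complex, had peaks in all 12. No member of these 3 families was gained or lost, and their group differences were not tested.

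The peak lists could not check the tissue label by expression. Of 13 kidney and injury marker genes, 8 had a peak, and the defining tubule genes Umod, Slc12a3, Aqp2, Lrp2 and Slc34a1 had none in any kidney. Listed markers numbered 1.25 ± 1.26 per kidney in controls, 4 ± 0.816 in IG and 2 ± 0.816 in TG (SD, n = 4), so they were more numerous in IG, where fewer Zfp genes were listed. Havcr1, the injury marker, was listed in no control, in 4 IG kidneys and in 3 TG kidneys. Slc12a1, the transporter of the thick ascending limb, was listed in 1, 4 and 0 kidneys of controls, IG and TG, Nphs1 of the podocyte in 1, 4 and 2, and Kl in 0, 3 and 1. The part of tissue composition in the Zfp results was not tested.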

How the data were processed

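The authors trimmed reads (cutadapt 1.9.3) and aligned them to mm10 (HISAT2 2.0.4; versions from the submitters' processing notes), called peaks per kidney with MACS and kept those overlapping mRNA exons. The version and threshold of MACS are not given in the sources used here. The deposited score is minus 10 times the log10 of the peak p-value. The 12 lists hold no counts, so depth is unknown, no counting interval can be given, and precision rests on 4 kidneys per group. Input libraries were not used here.

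Genes, exons and sequence came from GENCODE M21 (GRCm38). The transcript with the longest coding sequence set exon positions. Peaks overlapping by at least 1 bp on the same strand were joined into 16815 loci. Coordinates and lengths printed for a locus or its peak run from the lowest start to the highest end over the kidneys. The peak of a single kidney can be shorter. Whether a locus holds the stop codon was judged on the same span. Per-kidney measures were compared with two-sided exact permutation tests, and presence with Fisher's exact test. Named genes were up to 6 gained or lost loci per comparison and direction by mean score, 10 by score, 5 by number of loci, and the role list. Others were named after their values were seen. Members and lists were chosen with earlier results of these data known. The calls were run on simulated data in which the planted loci met the rule by construction. This checked the code and not the error rate of the calls. Alternatives were equal list lengths, a score cut at the median, strand ignored, finger number, exon length, joining of loci, the replicate block, leaving out each kidney and, added after seeing the data, sequence sharing and loci in all 12 kidneys (also with equal list lengths). Python 3.11.15, pandas 2.3.3 and scipy 1.17.1 were used.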

Additional observations from a re-analysis of the deposited data

Results flagged for a closer look

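The median within-list score percentile of Zfp peaks in IG was 47.49 in kidney 1, against 53.19, 53.28 and 53.53 in the other kidneys, so kidney 1 stood apart from the rest of its group. It was the only 1 of 33 groups of 4 kidneys in which a kidney stood out by Dixon's test, and chance alone gives about 1 in 20. Without it the IvC difference was -3.85, and without each other kidney in turn it reached -6.45.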

How the results depend on the processing

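The last-exon and long-last-exon differences between Zfp and other genes kept their direction and their exact p under every alternative run for them (36.66 to 46.36 and 39.7 to 51.12 points), with 39.75 to 40.41 and 43.66 to 44.29 when each kidney was left out (p = 0.000977, exact permutation test, the smallest possible then). The score difference between Zfp and other genes reversed to -1.25 with equal list lengths, -6.09 with scores at or above the median, -0.118 with at least 5 fingers, -2.24 with 1 value per gene, and, chosen after seeing the data, -5.10 at loci in all 12 kidneys and -2.49 for last-exon peaks (1.53 to 2.91 without a kidney).

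Equal list lengths turned TvI in Zfp genes to 2, weakened the IvC score percentile to -1.74 and strengthened the treatment minus control share to -0.507. Scores at or above the median gave TvI differences of -18.25 genes (exact permutation p = 0.0286), -0.192 points of share and 0.357 of percentile, an IvC percentile of -3.22 (p = 0.114) and last-exon share of -5.72 (p = 0.0286), and treatment minus control values of -0.877 (share, p = 0.0286) and -2.86 (percentile, p = 0.229). At least 5 fingers gave -3.00 for the IvC last-exon share (p = 0.0286, exact permutation test). Added after seeing the data, loci in all 12 kidneys gave an IvC percentile of -4.83, and leaving out members that share over 5% of their last-exon 100-mers gave -4.40 in IvC and -6.09 in TvI. The latter also moved TvI to -6.75 genes (p = 0.486) and 0.300 points of share (p = 0.0571), and treatment minus control to -0.196 points of share (p = 0.171, exact permutation tests). Equal list lengths moved the TvI percentile to -1.89. Ignoring strand changed no call.

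Same-numbered kidneys did not deviate together (correlations of -0.0211 to 0.0490). The replicate block left the differences of -49 and -63.25 genes, -0.514 points of share, -5.31 and -9.50 of percentile and -4.09 points of last-exon share with p = 0.125 (exact permutation test), the smallest it allows, so it says nothing about stability.

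Without a kidney, whose smallest exact permutation p is 0.0571, differences for IvC, TvI and treatment minus control were -52 to -45.33, -17.67 to -8 and -66.67 to -57 genes, -0.589 to -0.476, 0.0788 to 0.267 and -0.435 to -0.247 points of share, -6.45 to -3.85, -5.65 to -3.27 and -10.64 to -8.59 of percentile, and -2.79 to -1.48, -2.54 to -1.30 and -4.73 to -3.42 points of last-exon share.

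Counts of loci (genes) in all kidneys of a group and none of the other were, with equal list lengths, 9 (9) lost in IvC, 2 (2) gained and, for genes, 1 lost in TvI, and 8 (8) lost between treatment and control. With scores at or above the median they were 1 (1) gained and 9 (7) lost, 0 (0) gained and 2 (1) lost, and 1 (1) gained. A difference of at least 3 kidneys gave 15 (12) gained and 49 (35) lost, 5 (3) and 9 (6), and 10 (8) and 56 (40). Reciprocal overlap gave 0 lost in TvI, and leaving out members with shared sequence 2 gained in IvC. Without a kidney, which loosens the rule, the counts were 5 to 9 (3 to 7) gained and 17 to 23 (14 to 20) lost, 1 to 3 (1 to 2) and 1 to 4 (0 to 2), and 4 to 6 (4 to 5) and 21 to 26 (16 to 19). Gained IvC loci reached 8 without control kidney 4 and 9 without IG kidney 3. In TvI, gained loci reached 3 without IG kidney 2 and 2 without TG kidney 2 or 4, and lost loci 3 without IG kidney 1 or 4, 4 without TG kidney 1 and 2 without TG kidney 4. The cause of these shifts was not tested. For a difference of at least 3 kidneys, the shares of all loci and genes are given above. For the other counts of this paragraph no share over all loci or genes was taken. They describe Zfp genes only and cannot be set against the whole series.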

Other observations

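The same combination of high score and absence as in Zfp91 and Zfp791 occurred elsewhere in the series. Of 1039 loci that reached a score over 1000 in some kidney, 305 were missing from at least 1 list, and in 104 of these every listed score was over 300. The value of 3100 recurred 1086 times among the 91013 scores. Zfp91 and Zfp791 were the 2 Zfp loci of that kind.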
